A study of Mus musculus with 12 samples.

Results

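The genes followed here, grouped as AP-1, MYC and immediate early genes, are 10 transcription factor genes measured in NIH-3T3 cells. These cells are an immortalised line of mouse embryonic fibroblasts. The 10 genes are Fos, Fosl1, Fosl2, Jun, Junb, Jund, Egr1, Ier2, Myc and Atf3. They were taken by name from the deposited table of 16300 genes. All 10 were present, and all 10 were among the 11763 genes with enough counts to be tested. The cells had been exposed for 24 h to PBS (Con), to recombinant stanniocalcin-1 at 100 ng/mL (STC1), to transforming growth factor β1 at 10 ng/mL (TGFb1) or to both proteins at the same doses (TS), with 3 libraries in each group. No genetic change is named for any group, and all groups come from 1 cell line.

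Immediate early genes are transcribed from promoters that are already poised, so that serum or a growth factor raises their RNA within minutes and without new protein synthesis, after which most of them decline. AP-1 is a dimer of basic leucine zipper proteins, usually 1 FOS-family protein with 1 JUN-family protein, that binds the sequence TGACTCA. FOS proteins cannot dimerise with each other, whereas JUN proteins can. MYC binds E-box sequences as a dimer with MAX and is known for raising genes of ribosome production and metabolism. In fibroblasts AP-1 also acts beside SMAD proteins, the transcription factors that carry the TGF-β signal, at genes of the extracellular matrix.

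RNA was sequenced from the whole culture, so fewer cells that express a gene and less of its RNA per cell cannot be told apart. Depth ran from 16867563 to 18521810 expected counts per library. The 10 fibroblast markers summed to 18750 to 21340 CPM (counts scaled to a common library total), with a mean of 20660 in Con and 19110 in TGFb1. Of these 10 markers 5 were called lower by edgeR in TGFb1 against Con, where 2.08% of all genes were. In TS against Con 5 were lower and 2 higher, where 2.88% and 3.18% of all genes were. The part of these markers in the results below was not tested. Of 8 macrophage markers 7 were listed, and their sum had group means of 9.18 to 9.68 CPM, nearly all of it Cd14 and Cd68. The 4 epithelial markers listed and the 6 endothelial markers listed had mean sums of no more than 0.84 and 0.452 CPM, and no marker of any of these lists was at 0 in every library. Fold changes of all genes moved with transcript length. Spearman correlations over 6062 genes were -0.31 for TGFb1 against Con and -0.44 for TS against Con. The trend was also removed, and values without it are given for part of the results below. The 3 comparisons with Con share its libraries, and each treated group also enters more than 1 comparison.

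At 24 h the genes fell into a high and a very low group. Levels between genes were compared as CPM per kilobase of the longest protein-coding transcript, averaged over the 12 libraries. On this scale Jun stood at 48.2, Fosl2 at 47.0, Myc at 46.3, Fosl1 at 40.0, Egr1 at 32.6, Jund at 28.9, Junb at 26.7 and Ier2 at 15.3. Fos stood at 1.19 and Atf3 at 0.90, so that Ier2, the lowest of the other 8, was 12.9 times as high as Fos. Neighbours in this order were not all separate. Jun exceeded Fosl2 in 8 of the 12 libraries, and Fosl2 exceeded Myc in 8 of 12, with overlapping ranges in both pairs. Myc over Fosl1, Fosl1 over Egr1, Junb over Ier2 and Ier2 over Fos held in 12 of 12 libraries with no overlap of the ranges, whereas Egr1 over Jund, Jund over Junb and Fos over Atf3 held in 11, 10 and 11 libraries with overlap. Transcript length enters all 12 libraries alike, so these counts of libraries carry no information on an error in it. The transcript in use in these cells was not determined. In CPM without division by length Fosl2 had a mean of 307 and Jun of 154. Fos (2.50) and Atf3 (1.79) were the lowest on that scale too. Of the classical partner pair of AP-1, Jun stood at the top of the order per kilobase and Fos near its end.

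**Figure D1:**
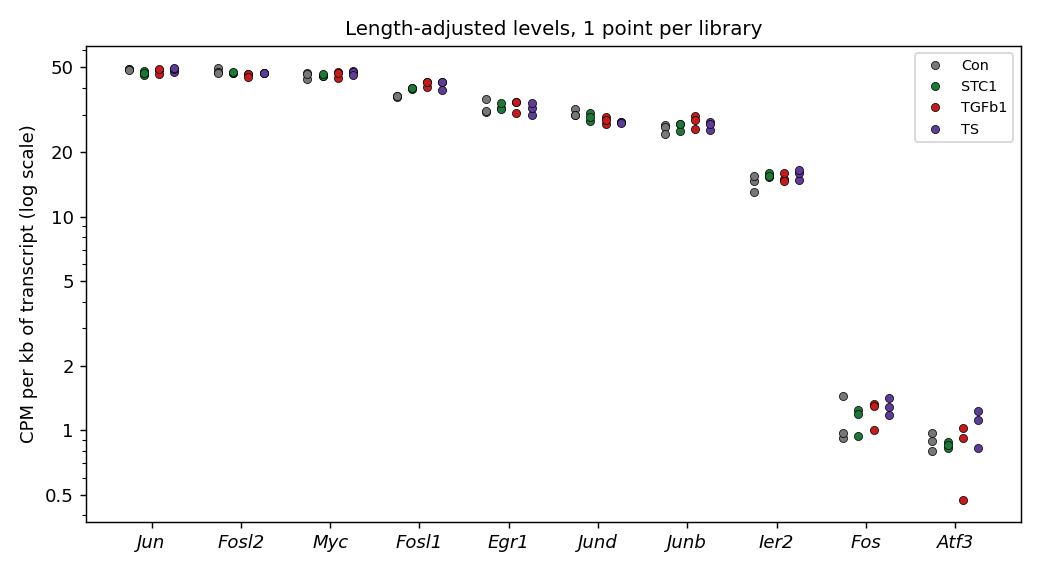
Level of the 10 genes in CPM per kilobase of transcript on a log axis; each point is 1 of the 12 libraries, coloured by group. Jun, Fosl2 and Myc sit together at the top, and Fos and Atf3 stand about an order of magnitude below Ier2.

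The DNA just upstream of the start is shown for 3 of these genes, because Jun and Fosl2 lay at the top of the order and Fos, of the same family as Fosl2, near its foot. RefSeq windows (mouse build GRCm38.p6) of the 250 bases before the start were at hand for 6 of the 10 genes. Each runs 5′ to 3′ on the strand of the gene: Fos from chr12:85473640-85473889 on the plus strand, Jun from chr4:95052223-95052472 on the minus strand and Fosl2 from chr5:32136222-32136471 on the plus strand. Capitals mark matches to the motifs searched.
Fos: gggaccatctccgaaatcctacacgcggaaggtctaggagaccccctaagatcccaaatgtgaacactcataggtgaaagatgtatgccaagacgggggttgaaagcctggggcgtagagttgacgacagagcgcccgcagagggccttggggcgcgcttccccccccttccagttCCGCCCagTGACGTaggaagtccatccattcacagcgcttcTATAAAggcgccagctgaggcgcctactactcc
Jun: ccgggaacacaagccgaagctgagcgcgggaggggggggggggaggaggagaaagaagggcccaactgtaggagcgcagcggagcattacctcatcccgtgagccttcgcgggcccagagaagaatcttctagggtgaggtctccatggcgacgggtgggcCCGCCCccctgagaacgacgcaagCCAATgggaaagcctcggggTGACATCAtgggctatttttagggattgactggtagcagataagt
Fosl2: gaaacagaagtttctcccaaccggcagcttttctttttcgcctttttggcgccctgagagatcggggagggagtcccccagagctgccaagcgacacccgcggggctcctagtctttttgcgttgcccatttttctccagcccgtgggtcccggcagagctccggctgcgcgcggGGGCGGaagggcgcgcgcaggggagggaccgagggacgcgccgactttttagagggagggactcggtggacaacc
Motifs were searched on both strands. For AP-1 they were the consensus site TGACTCA and the variant TGACATCA known from the Jun promoter. For CREB and ATF proteins they were the full site TGACGTCA and its first part TGACGT, so that every match to the former is also a match to the latter. The E-box CACGTG, the GC box GGGCGG, the element of NF-Y with the letters CCAAT, the TATA box in the form TATAAA and, by name, the CArG box of serum response factor were searched as well. The Fos window held TGACGT at 66 bases before the start, a GC box read on the minus strand at 74 bases and the TATA box at 33 bases. The Jun window held TGACATCA at 45 bases, the NF-Y element at 65 bases and a GC box on the minus strand at 89 bases before the start. The Fosl2 window held 1 GC box, at 75 bases. Of 32851 mouse windows of this length, 6.47% held TGACGT, 2.93% TGACATCA, 4.46% TGACTCA, 32.7% a GC box, 33.8% the NF-Y element and 12.4% the TATA box. CACGTG was found in 6.02% of windows, TGACGTCA in 1.55% and the CArG box in 1.47%, and none of these 3 lay in the windows of Fos, Jun or Fosl2. These matches describe letters in a short window and say nothing about binding in these cells.

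The 1 member that passed the test was Fosl1, which encodes FRA-1. This is a FOS-family protein that lacks the transactivation domain of FOS and is known to remain in growing and transformed fibroblasts. Fosl1 was at 68.6, 67.7 and 68.4 CPM in the 3 Con libraries and at 74.6, 73.6 and 74.5 CPM in the 3 STC1 libraries. It was at 75.2, 79.7 and 79.8 CPM in TGFb1 and at 79.4, 72.6 and 79.9 CPM in TS. Every treated library lay above every Con library, and the TS values spanned those of TGFb1. Fosl1 rose with TGF-β1 by 0.20 log2 units (14.7%; SE 0.04, 95% interval 0.12 to 0.28; adjusted p = 0.00135, edgeR's quasi-likelihood test). With both proteins it rose by 0.18 log2 units (13.3%; SE 0.04, 95% interval 0.10 to 0.26; edgeR adjusted p = 0.00223). Under 20 other ways of processing, the first value ran from 0.18 to 0.23 and the second from 0.16 to 0.22, and both stayed past the threshold in 20 of 20. With the trend on transcript length and GC content removed the log2 fold change was 0.21 in TGFb1 and 0.17 in TS.

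With stanniocalcin-1 alone the Fosl1 difference from Con was 0.12 log2 units (SE 0.04, 95% interval 0.04 to 0.20). Its unadjusted p was 0.00318, its edgeR adjusted p over all tested genes was 0.224, and no alternative brought the adjusted p under 0.05 (range 0.122 to 0.484). The value in TS lay below the sum of the effects of the 2 proteins given singly, with an interaction of -0.14 log2 units (95% interval -0.25 to -0.03; unadjusted p = 0.0146; edgeR adjusted p = 0.482), which did not pass the threshold. TS differed from TGFb1 by -0.02 log2 units (95% interval -0.10 to 0.06) and from STC1 by 0.06 (95% interval -0.02 to 0.14), with edgeR adjusted p of 0.974 and 0.691. Fosl1 was the only member whose deposited expected counts were fractional, in 12 of 12 libraries. The origin of the fractions is not given, and their part in the result was not tested.

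**Figure D2:**
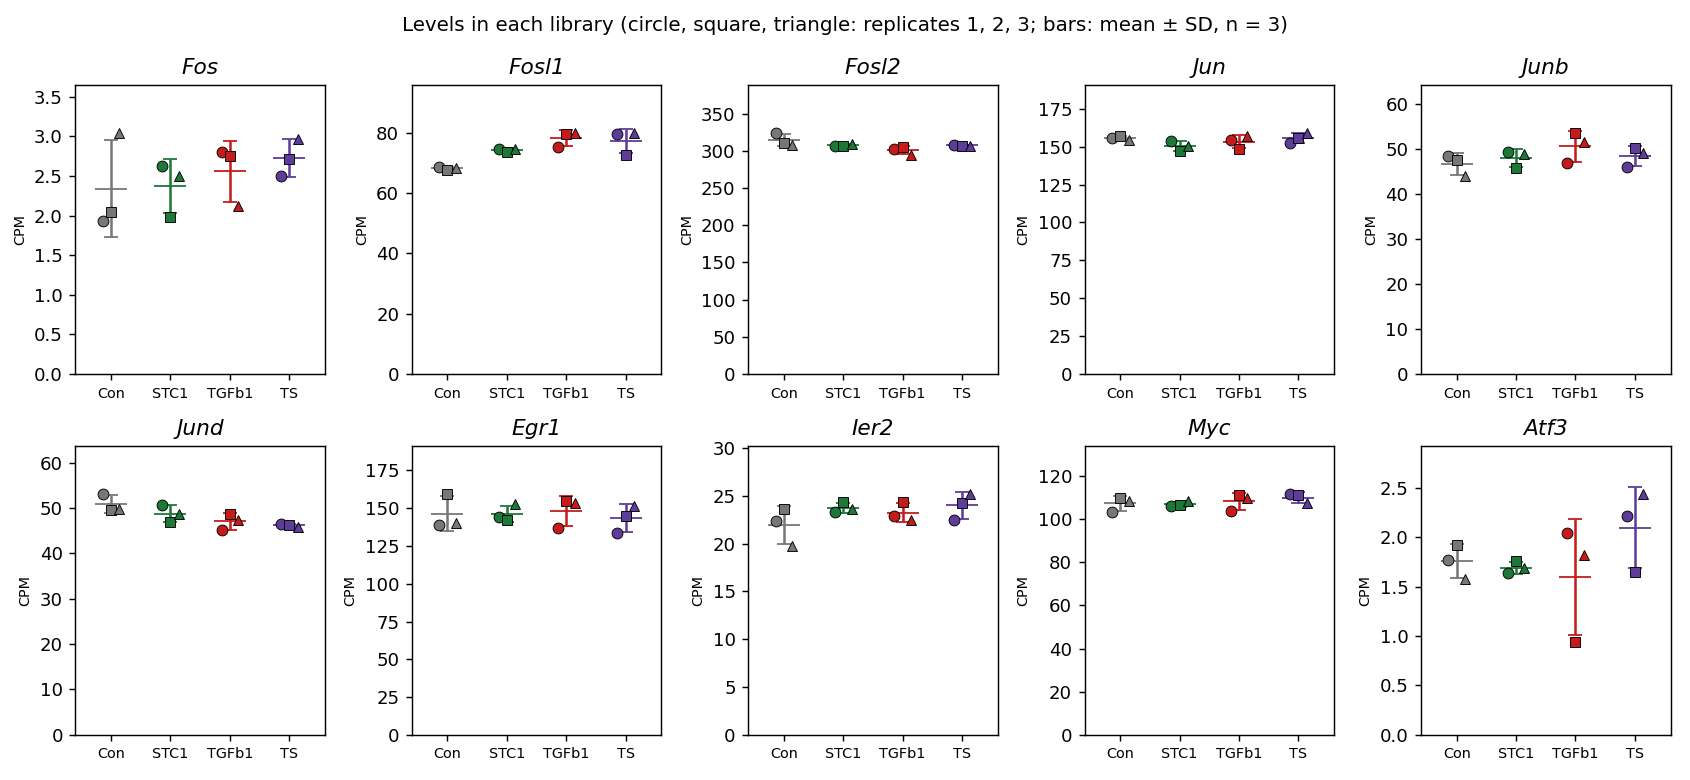
Level of each of the 10 genes in CPM in the 12 libraries, 1 panel per gene and each panel with its own axis; points are libraries and bars are the group mean with its SD. Fosl1 is the panel in which all 9 treated libraries lie above the 3 Con libraries, while the libraries of the groups overlap in Egr1, Fos and Atf3.

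Fosl2, which encodes FRA-2, a relative of FRA-1 with a long transcript, did not pass the test in any comparison. Its libraries were at 324, 311 and 308 CPM in Con, 306, 307 and 309 CPM in STC1, 303, 305 and 295 CPM in TGFb1, and 307, 307 and 307 CPM in TS. The TGFb1 and TS libraries all lay below those of Con, and the TS libraries all lay above those of TGFb1. The log2 difference of TGFb1 from Con was -0.06 (95% interval -0.12 to -0.01; unadjusted p = 0.0254; edgeR adjusted p = 0.202), and it was -0.02 with the length and GC trend removed. The transcript of Fosl2 is the longest of the 10, at 6537 bases.

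Fos itself was scarce at 24 h. It was at 1.93, 2.04 and 3.04 CPM in Con and at 2.62, 1.98 and 2.50 CPM in STC1. It was at 2.80, 2.75 and 2.12 CPM in TGFb1 and at 2.49, 2.72 and 2.97 CPM in TS, so that the 4 groups overlapped. The log2 fold change in TGFb1 was 0.14 (95% interval -0.24 to 0.52; edgeR adjusted p = 0.787). In TS it was 0.23 (95% interval -0.15 to 0.60; edgeR adjusted p = 0.553). With a mean of 43.5 counts per library, these intervals reach from a decrease to an increase of 0.5 log2 units or more, so that smaller differences in Fos were not detectable at this depth.

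As a share of the summed FOS-family level per kilobase (Fos, Fosl1 and Fosl2), Fosl1 made up 42.7 ± 0.43% in Con, 45.3 ± 0.12% in STC1, 47.0 ± 1.15% in TGFb1 and 46.2 ± 1.32% in TS (SD, n = 3). Fosl2 supplied nearly all of the rest. These shares come from the same values as the test of Fosl1 and add no test of their own. Their size depends on the transcript lengths used.

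In the JUN family Jund came nearest to the threshold. Jund, the member that is known to be expressed in resting cells and to be the least inducible, was at 53.1, 49.6 and 49.8 CPM in Con and at 50.7, 47.0 and 48.6 CPM in STC1. It was at 45.1, 48.8 and 47.3 CPM in TGFb1 and at 46.4, 46.3 and 45.8 CPM in TS. The TGFb1 and TS libraries were all below the Con libraries. The log2 difference of TS from Con was -0.14 (-9.28%; SE 0.05, 95% interval -0.23 to -0.05), with an edgeR adjusted p of 0.0506, just outside the threshold of 0.05. It passed in 4 of 20 alternatives (adjusted p between 0.0314 and 0.314), DESeq2 returned no adjusted p for it, and the difference was -0.10 with the length and GC trend removed and also without the first Con library. In TGFb1 alone the difference was -0.11 (SE 0.05; unadjusted p = 0.016; edgeR adjusted p = 0.158).

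Jun and Junb did not pass the test in any comparison. Jun, the JUN protein with the strongest activation of AP-1 sites, was at 156, 157 and 154 CPM in Con, 153, 147 and 150 CPM in STC1, 155, 149 and 157 CPM in TGFb1, and 152, 156 and 159 CPM in TS. Its 3 STC1 libraries lay below the 3 Con libraries by 0.05 log2 units on average (fold change -0.05, 95% interval -0.11 to 0.01; edgeR adjusted p = 0.573), and the TGFb1 and TS libraries overlapped Con. The interval for TGFb1 against Con ran from -0.08 to 0.04 log2 units. Junb, a JUN protein known to be induced by TGF-β and to restrain JUN, was at 48.4, 47.5 and 43.9 CPM in Con, 49.2, 45.7 and 48.9 CPM in STC1, 46.7, 53.4 and 51.4 CPM in TGFb1, and 46.0, 50.1 and 49.0 CPM in TS. The groups overlapped, and the log2 fold change of TGFb1 against Con was 0.11 (SE 0.05, 95% interval 0.02 to 0.21; unadjusted p = 0.0226; edgeR adjusted p = 0.19). As a share of the JUN-family level per kilobase, which depends on the transcript lengths used, Jund made up 29.0 ± 0.68% in Con and 26.8 ± 0.66% in TS (SD, n = 3).

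Egr1, a zinc finger factor that serum induces through serum response factor, was the least steady of the abundant members. It was at 139, 160 and 141 CPM in Con and at 144, 142 and 153 CPM in STC1. It was at 137, 155 and 154 CPM in TGFb1 and at 134, 145 and 152 CPM in TS. All 4 groups covered the same range. The log2 fold change was 0.001 in STC1 (95% interval -0.16 to 0.16), 0.02 in TGFb1 (95% interval -0.14 to 0.18) and -0.03 in TS (95% interval -0.19 to 0.13), and the joint test of the 4 groups gave an edgeR adjusted p of 0.971. Its coefficient of variation within groups was 6.37%, against 1.98% from counting alone. Over all abundant genes the median within-group coefficient was 3.18%, and Jun, Fosl2 and Myc, with 2.08%, 1.63% and 2.69%, were below it.

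Ier2, an immediate early nuclear protein, was at 22.4, 23.6 and 19.8 CPM in Con, 23.3, 24.3 and 23.6 CPM in STC1, 22.8, 24.3 and 22.5 CPM in TGFb1, and 22.5, 24.3 and 25.2 CPM in TS. The treated groups had higher means than Con but overlapped it. The log2 difference was 0.11 in STC1 (95% interval -0.02 to 0.24), 0.08 in TGFb1 (95% interval -0.05 to 0.21) and 0.13 in TS (95% interval -0.002 to 0.26), with edgeR adjusted p of 0.541, 0.569 and 0.273. Atf3, a stress-induced leucine zipper factor that is also known as an early target of TGF-β, was at 1.77, 1.92 and 1.58 CPM in Con and at 1.63, 1.75 and 1.69 CPM in STC1. It was at 2.04, 0.94 and 1.82 CPM in TGFb1 and at 2.21, 1.64 and 2.44 CPM in TS. The groups overlapped, the highest library was 2.6 times the lowest, and the mean count was 31.2. The log2 difference of TS from TGFb1 was 0.38 (95% interval -0.07 to 0.83; edgeR adjusted p = 0.837), so that a change of this size in Atf3 was not detectable at this depth. It was 0.11 without the second TGFb1 library, the lowest of the 12, and 0.60 without the first TGFb1 library.

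Myc gave the narrowest bounds after Jun and Fosl2. It was at 103, 110 and 109 CPM in Con and at 106, 107 and 108 CPM in STC1. It was at 104, 111 and 110 CPM in TGFb1 and at 112, 111 and 107 CPM in TS, and the groups overlapped. The log2 fold change was -0.003 in STC1 (95% interval -0.07 to 0.07), 0.02 in TGFb1 (95% interval -0.05 to 0.08) and 0.04 in TS (95% interval -0.03 to 0.11), with an edgeR adjusted p of 0.892 in TGFb1 and 0.602 in TS. TGF-β is known to repress Myc in epithelial cells; in these fibroblasts at 24 h the lower bound of the TGFb1 interval was -0.05 log2 units, and it was -0.09 without the first Con library, -0.08 without the second TGFb1 library and -0.03 without the first.

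Counted over the 10 genes, 1 passed the edgeR test in TGFb1 against Con, where 3.99% of all tested genes did, and 1 in TS against Con, where 6.06% did; in both it was Fosl1. None passed in STC1 against Con, where 0.051% of all genes were called (0.0255% in each direction). This background depended on the processing. The count of all genes called higher was 3 in the full fit and 27 in DESeq2. It was 23 without the low count filter and 24 when replicate numbers entered the model. It was 0 without the first Con library, and also 0 without the third STC1 library. None passed in TS against TGFb1, where 0% of genes were called by edgeR, 1 gene by DESeq2, and 765 genes (6.5%) but 0 members had an unadjusted p under 0.05. None passed in TS against STC1, where 0.298% of genes were called and 0 members had an unadjusted p under 0.05, beside 9.17% of genes. The interaction of the 2 proteins called 0% of genes in edgeR and 0 in DESeq2, with 975 genes (8.29%) and 1 member (Fosl1) under an unadjusted p of 0.05. In the joint test of the 4 groups 1 member passed, against 4.11% of all genes. An unadjusted p under 0.05 was found for 1 member in STC1 against Con (10.6% of genes), for 4 in TGFb1 against Con (17.7%), for 2 in TS against Con (18.8%) and for 2 in the joint test (16.7%). With 10 genes, 1 call against a background of 3.99% or 6.06% says little about the genes as a group.

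Libraries of the groups did not overlap for 3 of the 10 members in TGFb1 against Con (Fosl1 higher, Fosl2 and Jund lower), beside 21.3% of all genes (10.4% higher and 10.9% lower). It held for the same 3 in TS against Con, beside 21.9% (10.7% higher and 11.2% lower). In STC1 against Con this held for 2 members, Fosl1 higher and Jun lower, beside 15.2% of genes (7.67% higher and 7.52% lower). It held for 1 member in TS against TGFb1 (Fosl2 higher; 10.9% of genes, 5.49% higher and 5.45% lower) and for 1 in TS against STC1 (Jund lower; 14.5% of genes, 7.35% higher and 7.15% lower). The median log2 fold change of the members was 0.02 in TGFb1 and 0.04 in TS, against -0.002 and -0.0002 for all genes. The median size of the change was 0.10 in TGFb1, against 0.06 for all genes, and 0.04 in STC1, against 0.05.

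**Figure D3:**
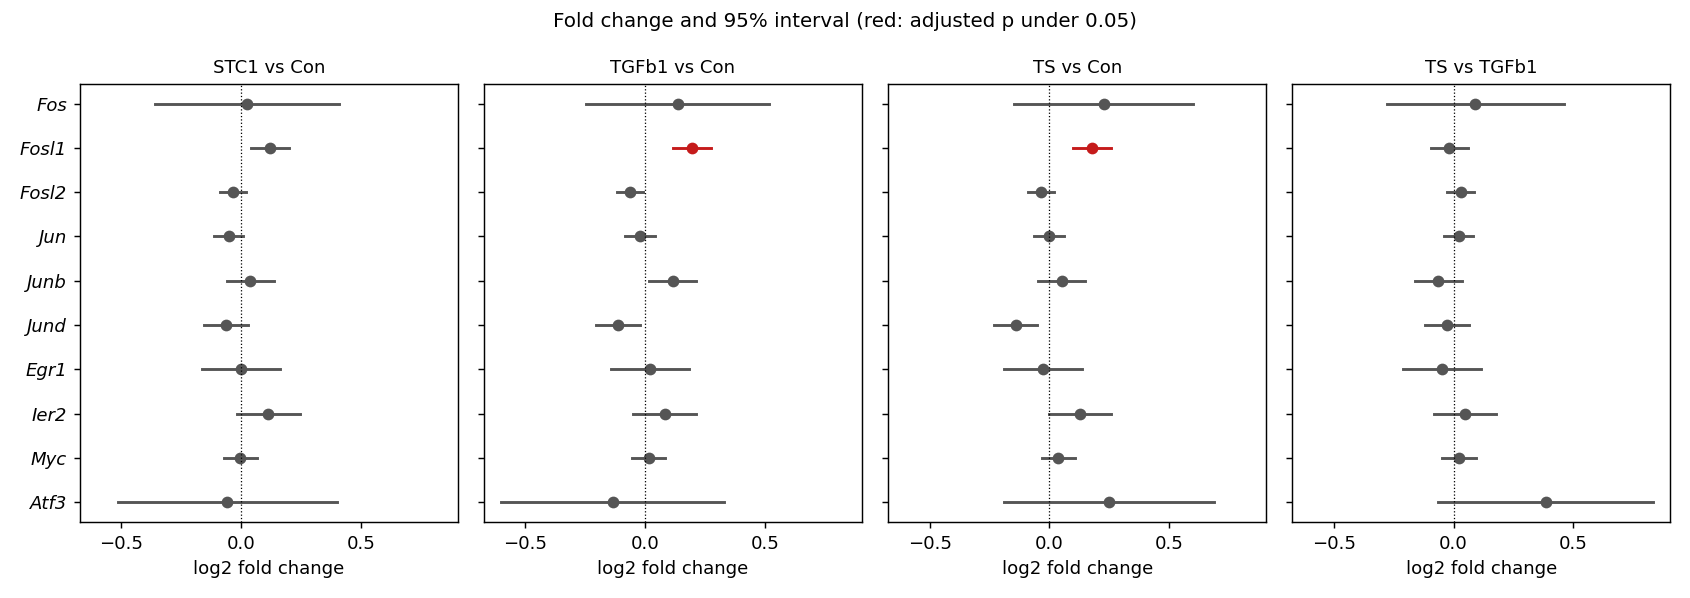
Log2 fold change of the 10 genes in STC1, TGFb1 and TS against Con and in TS against TGFb1; points are edgeR estimates from 3 libraries per group, bars are 95% intervals, and red marks an adjusted p under 0.05. The Fosl1 intervals for STC1 (0.04 to 0.20), TGFb1 (0.12 to 0.28) and TS (0.10 to 0.26) against Con lie above 0. That of Junb for TGFb1 (0.02 to 0.21) does so too. The Jund intervals for TGFb1 (-0.20 to -0.02) and TS (-0.23 to -0.05) lie below 0, as does that of Fosl2 for TGFb1 (-0.12 to -0.01). Only those of Fosl1 for TGFb1 and TS are red, and the intervals of Fos and Atf3 are the widest.

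Within the groups the correlations between members from library to library were both positive and negative. After the group means were removed, the Pearson correlation of log2 CPM over the 12 libraries was 0.72 for Junb with Jund, 0.66 for Junb with Egr1, 0.61 for Egr1 with Ier2, 0.58 for Junb with Ier2 and 0.57 for Jun with Atf3. The lowest values were -0.528 for Myc with Atf3, -0.504 for Jund with Atf3 and -0.501 for Junb with Atf3. Atf3 had a mean of 31.2 counts, with a within-group coefficient of variation of 21.4%, against 17.9% from counting alone. The part of counting in its correlations was not tested. Of the 45 pairs 23 were positive, 5 were over 0.5, and the median was 0.002. These values describe 12 libraries whose members share depth and library preparation, and with so few libraries they carry no test. The share of such pairs among all tested genes was not computed.

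**Figure D4:**
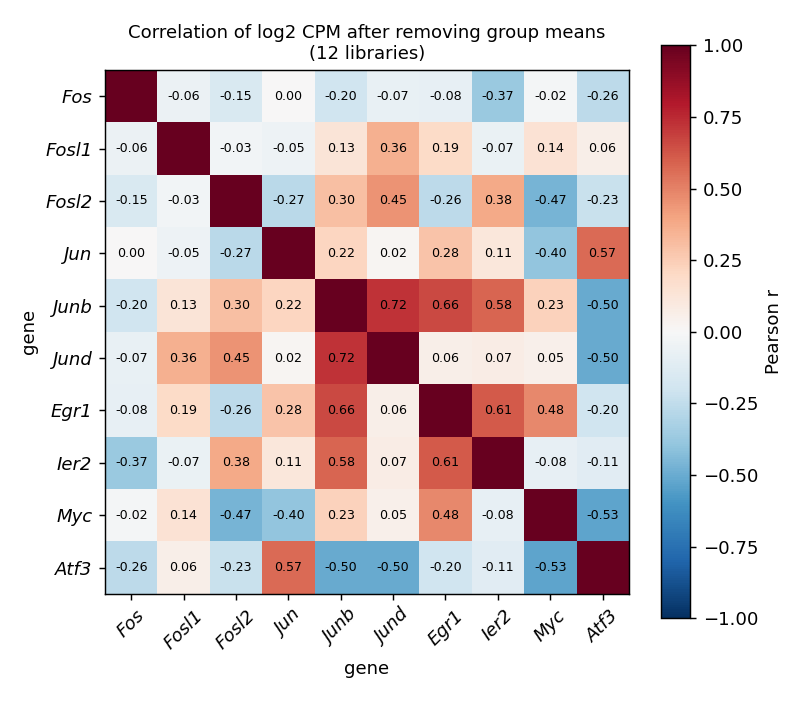
Pearson correlation of log2 CPM between the 10 genes over the 12 libraries after removal of the group means; colour gives the correlation from -1 to 1. Junb, Egr1 and Ier2 correlate with each other and Junb with Jund, while the median over the 45 pairs is 0.002.

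Genes known as AP-1 targets rose in part with TGF-β1. Of 17 tested genes on this list 5 rose with TGF-β1 (29.4%, against 1.9% of all genes) and 8 rose in TS against Con (47.1%, against 3.18%). None fell, where 2.08% and 2.88% of all genes did. The list was chosen with earlier results of these data known, so these shares describe it and are no independent test. All genes here means tested genes of every level, and the part of abundance in the difference was not tested. Cd44, the hyaluronan receptor, rose by 0.17 log2 units in TGFb1 (edgeR adjusted p = 9.73e-05) and by 0.16 in TS (edgeR adjusted p = 0.000252). Spp1, which encodes osteopontin, rose by 0.17 and 0.11, and Hmga2 and Hmga1, chromatin proteins of growing cells, by 0.15 and 0.13 in TGFb1 and by 0.16 and 0.10 in TS. Timp1, an inhibitor of matrix metalloproteinases, rose in TS by 0.18 (edgeR adjusted p = 0.00108). With the length and GC trend removed the TS calls of Timp1 (0.11; adjusted p = 0.0595) and Spp1 (0.07; adjusted p = 0.138) were lost. The TS call of Spp1 was also lost without the first Con or the second TS library, and that of Hmga1 without the second or the third Con library or the first TS library. In STC1 against Con the 1 gene of the list that passed was Il6, the cytokine, with 0.48 log2 units (edgeR adjusted p = 0.0472, where 0.0255% of all genes rose). This call was lost when any of 6 libraries was left out, 2 each from Con and STC1 and 1 each from TGFb1 and TS, and DESeq2 gave Il6 no adjusted p. The list's median was 0.08 in TGFb1 and 0.10 in TS. With the length and GC trend removed 5 and 6 genes rose, beside 249 and 288 of all genes. Without the first Con library 5 rose in TS, where the count over all genes that rose went from 374 to 161. Several of these genes are also known targets of SMAD proteins, so the list does not separate the 2 factors.

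Genes known as MYC targets also rose in part, beside a Myc level that did not pass the test. Of 28 tested genes 13 rose with TGF-β1 (46.4%, against 1.9% of all genes) and 12 rose in TS against Con (42.9%, against 3.18%). None fell, and 27 of the 28 fold changes were positive in TGFb1, with a median of 0.10. This list too was chosen with earlier results of these data known, so its shares are no independent test. The share of all genes covers tested genes of every level, and the part of abundance in the difference was not tested. Ldha, lactate dehydrogenase, was at 1145 ± 35.1 CPM in Con, 1299 ± 35.7 in TGFb1 and 1372 ± 15.7 in TS (SD, n = 3). It rose by 0.18 log2 units in TGFb1 (edgeR adjusted p = 5.07e-06) and by 0.26 in TS (edgeR adjusted p = 2.71e-10), and it was the 1 gene of the list that rose in TS against STC1 (0.17; edgeR adjusted p = 0.000339). Tfrc, the transferrin receptor, was at 170.2 ± 4.4 CPM in Con, 191 ± 3.1 in STC1, 204 ± 11.3 in TGFb1 and 204 ± 4.0 in TS. Its log2 fold change of 0.26 passed in TGFb1 and in TS (edgeR adjusted p of 8.49e-08 and 4.83e-08), and its 0.17 in STC1 made it the 1 gene of the list that passed there (edgeR adjusted p = 0.0154). The STC1 call was lost without the first Con library and without the second or the third STC1 library. Nop56, Ncl and Npm1, nucleolar proteins of ribosome production, rose in TGFb1 by 0.16, 0.16 and 0.13, and Odc1, the first enzyme of polyamine synthesis, by 0.13. With the length and GC trend removed 13 genes rose in TGFb1 and 13 in TS, with medians of 0.09 and 0.08. Of all genes 249 and 288 rose with this trend removed. Without the first Con library 7 rose in TGFb1 and 5 in TS, and without the third TGFb1 library 7 rose in TGFb1; the count over all genes that rose in TGFb1 was 224 in the full fit, 76 without that Con library and 90 without that TGFb1 library. Without the first TS library 7 rose in TS. The count over all genes that rose in TS was 374 in the full fit, 161 without the first Con library and 202 without the first TS library.

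Of 39 tested other immediate early genes 1 rose (2.56%) and 1 fell (2.56%) in TGFb1 against Con, close to the 1.9% and 2.08% of all genes. In TS against Con 3 rose (7.69%) and 2 fell (5.13%), beside 3.18% and 2.88% of all genes. Sgk1, a serum- and glucocorticoid-induced kinase, rose in TGFb1 by 0.11 log2 units (edgeR adjusted p = 0.015) and in TS by 0.12 (edgeR adjusted p = 0.00424), and Btg1, an antiproliferative gene, fell by 0.11 and 0.10. Both TGFb1 calls were lost without the first Con library and without the third TGFb1 library, and that of Btg1 also without the second; the TS call of Sgk1 was lost without the first Con library. In TS against Con Gadd45b, a known early TGF-β target, rose by 0.22 (edgeR adjusted p = 0.00503), and by 0.18 with the length and GC trend removed. This call was lost in 0 of 20 alternatives, with no adjusted p from DESeq2. Plk3, a kinase, rose by 0.22 (edgeR adjusted p = 0.0402), and Per1, a clock gene, fell by 0.14 (edgeR adjusted p = 0.023). The call of Plk3 was lost in 6 alternatives, among them scaling without TMM. The TS calls of Per1 and Btg1 were both lost with the length and GC trend removed (-0.10 and -0.08), without the first Con library and without the first or second TS library, and that of Btg1 also without the second Con library. Plk3 was also called in TS against STC1 (0.29, edgeR adjusted p = 0.0347). This call was lost in 6 alternatives, among them each STC1 library left out. It was also lost with the length and GC trend removed (0.277, edgeR adjusted p = 0.052). No gene of the list was called in STC1 against Con.

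Of 21 tested kinases and factors of the MAPK and SRF inputs 0 passed in TGFb1 and 1 fell in TS (4.76%, against 2.88% of all genes). This was Mrtfb, a cofactor of serum response factor, which was at 43.0 ± 0.34 CPM in Con, 38.1 ± 0.47 in STC1, 39.0 ± 1.34 in TGFb1 and 37.4 ± 0.52 in TS (SD, n = 3). Its log2 difference of TS from Con was -0.20 (SE 0.05, edgeR adjusted p = 0.00464), and -0.155 with the length and GC trend removed. The call was lost in 0 of 20 alternatives, with no adjusted p from DESeq2. Of 17 tested MAPK feedback genes 1 rose in both comparisons (5.88%, against 1.9% and 3.18% of all genes). This was Dusp6, the phosphatase of ERK, at 43.4 ± 3.4 CPM in Con, 48.3 ± 1.4 in STC1, 50.8 ± 1.3 in TGFb1 and 50.6 ± 1.4 in TS (SD, n = 3). Its log2 fold change was 0.23 in TGFb1 (SE 0.05; edgeR adjusted p = 0.00238) and 0.22 in TS (edgeR adjusted p = 0.00188); without the first Con library both calls were lost, with edgeR adjusted p of 0.0754 and 0.0605, and DESeq2 gave no adjusted p.

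Of 15 tested further leucine zipper partners of AP-1, 1 fell in TGFb1 (6.67%, against 2.08% of all genes) and 2 fell in TS (13.3%, against 2.88%). Maf fell in TGFb1 by 0.56 log2 units (SE 0.14; edgeR adjusted p = 0.0112) and in TS by 0.45 (edgeR adjusted p = 0.0354), and Atf5 fell in TS by 0.13 (edgeR adjusted p = 0.0104). The TGFb1 call of Maf was lost without the second or the third TGFb1 library. Its TS call was lost with the length and GC trend removed (edgeR adjusted p = 0.0655), without any 1 of the Con libraries and without the second or the third TS library, and DESeq2 gave Maf no adjusted p in either comparison. The call of Atf5 was lost without the first Con library and without the first TS library. Of 14 genes of the MYC network around MAX 0 passed in any comparison, the lowest edgeR adjusted p of the joint test being 0.18 for Zbtb17. Of 13 tested genes of the integrated stress response, which is known to raise Atf3, 0 passed. Their median log2 fold change in TGFb1 was 0.07 with 12 positive, and the lowest edgeR adjusted p of the joint test was 0.0794, for Stc2, a relative of stanniocalcin-1. With backgrounds of a few percent, 0 or 1 call in lists of this size says little about the lists.

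**Figure D5:**
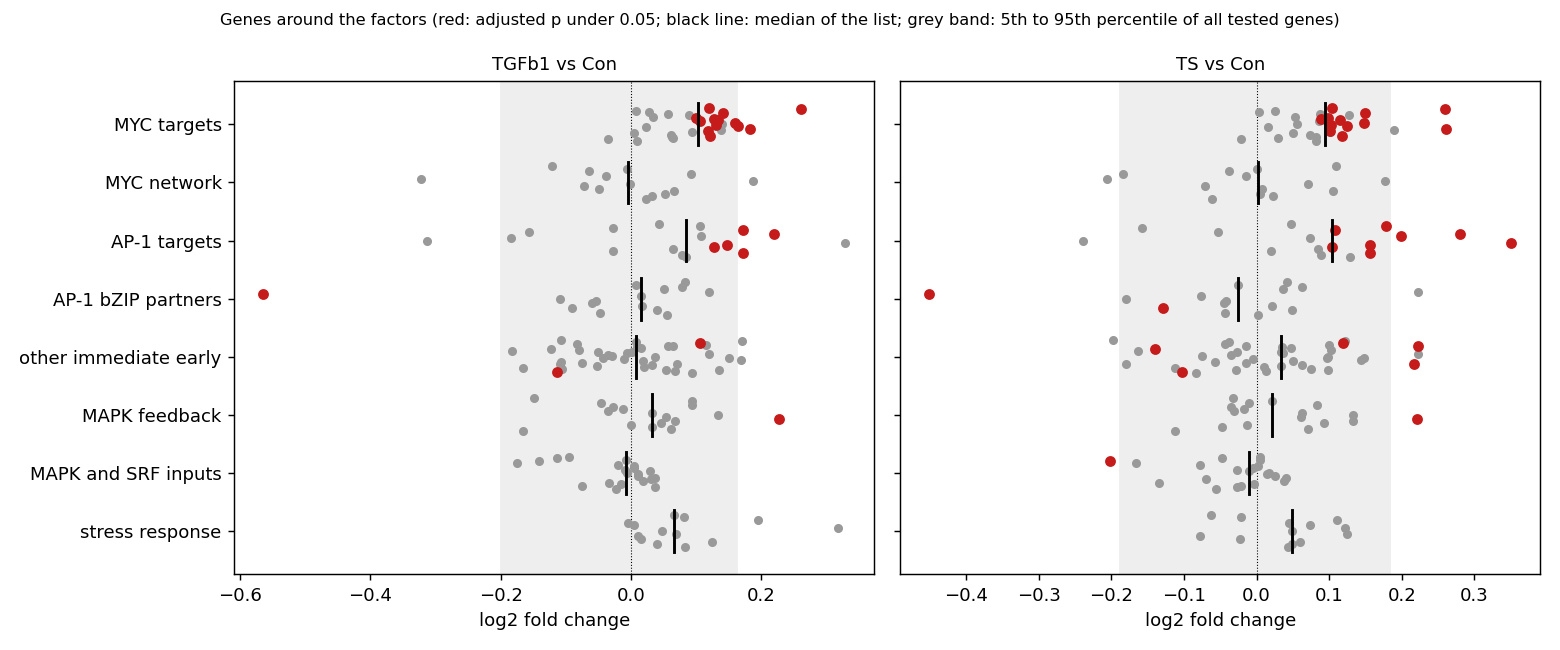
Log2 fold change of each tested gene of the companion lists in TGFb1 and TS against Con; each point is 1 gene, red where the edgeR adjusted p is under 0.05, black lines mark list medians and the grey band spans the central range of all tested genes. The MYC target list (median 0.10 in TGFb1) and the AP-1 target list (0.08) sit above 0, and 13 and 5 of their genes passed in TGFb1.

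The genes most alike to each member were found by Pearson correlation of log2 CPM over the 12 libraries among 8986 genes of at least 10 CPM, with group differences left in. For Fosl1 these were Tuba1c, an α-tubulin (0.95), and Exosc1, an RNA exosome subunit (0.94). For Jund they were Dag1, dystroglycan (0.94), and Col6a1, a collagen VI chain (0.93), and for Fosl2 the repressor Cic (0.93). Egr1 was most like Tmem64 (0.93), Jun like Kctd15 (0.90), Junb like Rnf149 (0.89), Atf3 like Clasrp (0.88), Ier2 like Ly6a (0.87), Myc like Mtmr10 (0.84) and Fos like Rnf121 (0.83). Each is the highest of 8986 values or next to it and are given as a description.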

How the data were processed

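Polyadenylated RNA of 12 NIH-3T3 cultures was sequenced with the MGIEasy kit, per the labels' protocols. The authors deposited expected counts per gene, of which 88.5% to 89.1% per library were whole (tolerance 1e-06). The build was GRCm39, per the submitters' processing notes; the aligner, the counter and the use of strand are not given in the sources used here. Groups come from the labels. Expected counts were rounded and tested with edgeR 4.0.16 (R 4.3.3): filterByExpr, TMM, 1 mean per group over all 12 libraries (8 residual degrees of freedom), robust quasi-likelihood test, two-sided, Benjamini-Hochberg over 11763 genes, threshold 0.05. P-values measure the spread between these libraries, which the series calls biological replicates; no batch is labelled. Precision is set by 16867563 to 18521810 counts per library, with a median biological coefficient of variation of 2.24%. CPM uses TMM-scaled totals; within-group correlations and similarity use log2 CPM with a prior count of 2. Symbols came from the RefSeq table (16177 of 16300 IDs matched), transcript lengths from GENCODE M21. Alternatives were DESeq2 1.42.0, other scalings and filters, only the groups compared, the replicate number as a block, each library left out and, chosen after seeing the data, removal of the length and GC trend. The procedure was tested on simulated data. All 10 members are named; of each companion list up to 6 called genes are named, or the 3 with the lowest joint p where none was called. Some genes that these rules would name are not reported here. Members and lists were chosen with earlier results of these data known.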

Additional observations from a re-analysis of the deposited data

How the results depend on the processing

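Over 42 fold changes of the 10 genes and 831 values under the alternatives, 38 values in 17 results changed sign, and none of these belonged to a difference that had passed the test. The count of members past the threshold was within 1.5 times its main value in 134 of 138 cases. The exceptions were in TS against Con, where the count of 1 became 2 (Fosl1 and Jund) without TMM scaling, with a mean of at least 50 counts, and in 1 of the leave-one-out fits (range 1 to 2). It was also 2 with the replicate number as a block, where Jund had a log2 difference of -0.14 and an edgeR adjusted p of 0.0419. In TS against Con 713 of all genes were called in the full fit. The count over all genes was 718 without TMM scaling and 745 with a mean of at least 50 counts. It was 722 without the first TGFb1 library and 856 with the block. The replicate numbers were not taken as pairs. Same-numbered libraries of different groups had correlated deviations of -0.02 to 0.25 (median 0.08), over 0.1 in 6 of 18 pairs. The median was -0.04 in 36 pairs with different numbers. Group means were removed from the deviations, so both medians are tied to each other and the second is no independent reference. Without TMM scaling Egr1 in STC1 was -0.0053. With the length and GC trend removed Egr1 in TS against Con was 0.00316, Fosl2 was 0.00397 in STC1 and 0.0086 in TS against Con, Jun was 9.78e-05 in TGFb1 and 0.00464 in TS against Con, and Myc was 0.000533 in STC1. Leaving out 1 library at a time moved Atf3 from -0.124 to 0.0108 in STC1, from -0.351 to 0.136 in TGFb1 and, in TS against TGFb1, from 0.113 to 0.599. Egr1 ranged from -0.0353 to 0.068 in STC1, from -0.0148 to 0.0886 in TGFb1 and from -0.0707 to 0.0396 in TS against Con. Fos ranged from -0.0995 to 0.255 in STC1 and from -0.0272 to 0.163 in TS against TGFb1, where Fosl1 ranged from -0.0452 to 0.026. Jun ranged from -0.0169 to 0.0158 in TS against Con and from -0.000479 to 0.0371 in TS against TGFb1, and Junb from -0.00153 to 0.0718 in STC1. Myc ranged from -0.0291 to 0.0146 in STC1, from -0.0101 to 0.0442 in TGFb1 and from -0.00631 to 0.0422 in TS against TGFb1. The cause of these sign changes was not tested. Depth limits Fos and Atf3 most, with mean counts of 43.5 and 31.2 per library.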
